A study of Mus musculus with 4 samples.

Results

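The genes of cholesterol and fatty acid synthesis were followed in 4 RNA sequencing libraries from mouse mammary tumours, 2 from the unirradiated and 2 from the irradiated group. The members are 40 genes chosen by symbol from the textbook pathways, of 54532 genes in the count tables, and all 40 passed the filter on low counts. They comprise 18 genes of the sterol branch, 5 genes of sterol sensing and 17 genes of the fatty acid branch. All libraries come from MMTV-PyMT tumours, in which the mouse mammary tumour virus promoter drives the polyoma middle T oncogene, and all carry a Dll1-mCherry label on the C57BL/6 strain. The irradiated group received targeted radiation of 6 Gy, and the titles of both groups carry 6D. The treatment label of the irradiated group also sets the radiation itself at day 6, so the time from radiation to collection is unclear. The libraries of each group are named A and B, and the labels say neither whether A and B are separate animals nor how old the mice were. The p-values are therefore set against the differences between 2 libraries that may be technical repeats, and irradiation and any batch shared by a group cannot be told apart.

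Both branches start from cytosolic acetyl-CoA. In the sterol branch it is condensed into mevalonate, converted to isoprenoid units and squalene, and closed into lanosterol, which a series of demethylases, reductases and isomerases turns into cholesterol. In the fatty acid branch it is carboxylated to malonyl-CoA and built into palmitate, which elongases lengthen and desaturases unsaturate, while a separate use of the same enzyme classes makes long polyunsaturated fatty acids from dietary ones. SREBP transcription factors, held in the endoplasmic reticulum by the Insig and Scap proteins when sterols are plentiful, drive both branches, with Srebf2 known chiefly for the sterol and Srebf1 for the fatty acid genes, and the mammary gland uses the fatty acid branch heavily to make milk fat.

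The libraries held 17569515 and 13011489 counts (unirradiated A and B) and 15817969 and 23763830 counts (irradiated A and B), so that 1 count was worth from 0.0421 to 0.0769 CPM. This unit is the count divided by library size. Levels are given as CPM with TMM scaling, which sets libraries to a common scale, and as CPM per kilobase of the deposited gene length (RPKM) where different genes are compared. The samples are labelled cancer-associated fibroblasts, but the 20 epithelial and tumour cell markers summed to 20915 and 20949 CPM in the unirradiated and 16764 and 17508 CPM in the irradiated libraries. The 14 fibroblast markers summed to 690 and 659 CPM and to 2072 and 2083 CPM. Of the epithelial list 6 genes were higher and 12 lower after irradiation, and of the fibroblast list 11 were higher and 1 lower. Of the 12 macrophage genes 11 were higher, with sums of 329 and 328 against 827 and 825 CPM. Of all tested genes 33.9% were higher and 32.5% lower. Within the epithelial list the casein gene Csn3 fell from a mean of 5791 to 3203 CPM, and Krt8 did not pass, at 2538 and 2565 CPM. Krt19 rose from 80.4 to 525 CPM, Csn1s1 from 30.2 to 240 CPM and Csn2 from 0.673 to 139.5 CPM. All 10 endothelial markers were higher, with sums of 93.5 and 94.98 against 210 and 198 CPM. None of these lists had a defining first gene at 0: Epcam averaged 1211 and 1107 CPM, Pdgfra 5.59 and 23.7, Adgre1 5.64 and 22.3, and Pecam1 21.1 and 24.9. Of 12 adipocyte markers, which summed to 39.2 and 38.1 against 29.8 and 30.5 CPM, 6 were tested, with 1 higher and 2 lower. Adipoq was at a mean of 0.151 and 0.231 CPM, Plin1 at 0.119 and 0.171 CPM, and Lep at 0 in both unirradiated libraries. The list also holds Lipe, lower at 21.3 against 14.0 CPM, Fabp4 at 9.58 and 11.1 CPM, which did not pass, and Pparg, which was higher. Ucp1, the uncoupling protein of brown fat, fell from 48 and 50 counts to 4 and 3 (log2 fold change -4.26). T and NK cell markers summed to 18.3 and 22.1 against 10.6 and 11.01 CPM, with 6 of 9 tested genes lower. The 8 hepatocyte markers summed to 3.70 and 2.43 against 18.4 and 19.7 CPM. Of the 3 tested, Fgb, a fibrinogen chain, rose from a mean of 0.439 to 17.98 CPM (log2 fold change 5.22), and Apoa1 and Ahsg fell from 0.771 to 0.151 and from 1.44 to 0.532 CPM. Ttr was at 0 in all 4 libraries, and Alb had 1, 0, 0 and 3 counts. The part of these shifts in cell type markers in the values that follow was not tested, and in such bulk samples fewer cells of a type and less RNA per cell cannot be told apart.

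The comparison asked which lipid synthesis transcripts differed between irradiated and unirradiated tumours, and whether the branches moved alike. The desaturase genes Fads1, Fads3 and Fads2 and the elongase gene Elovl5 rose the most, the lipogenic protein gene Thrsp fell the most, and Srebf1, Acly and Tm7sf2 fell as well. No other member passed a test against a change of 1.5-fold. Of the 40 members, 17 were higher and 14 lower by edgeR's quasi-likelihood test, with a Benjamini-Hochberg adjusted p under 0.05 over 15961 genes, and 9 did not pass. Of all tested genes 66.4% were called, 33.9% higher and 32.5% lower. The median log2 fold change of the members was 0.11, beside -0.00417 for all tested genes. Changes beyond 2-fold were seen for 3 members upward (Fads1, Fads3, Elovl5) and 2 downward (Thrsp, Tm7sf2), while 10.8% of all tested genes were more than 2-fold higher and 10.1% more than 2-fold lower. That test against 1.5-fold called 4 members higher and 4 lower, beside 2032 higher and 1754 lower of all 15961 tested genes. Statements that groups overlap or not rest on 2 libraries per group. The share of all tested genes without overlap was not counted.

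**Figure D1:**
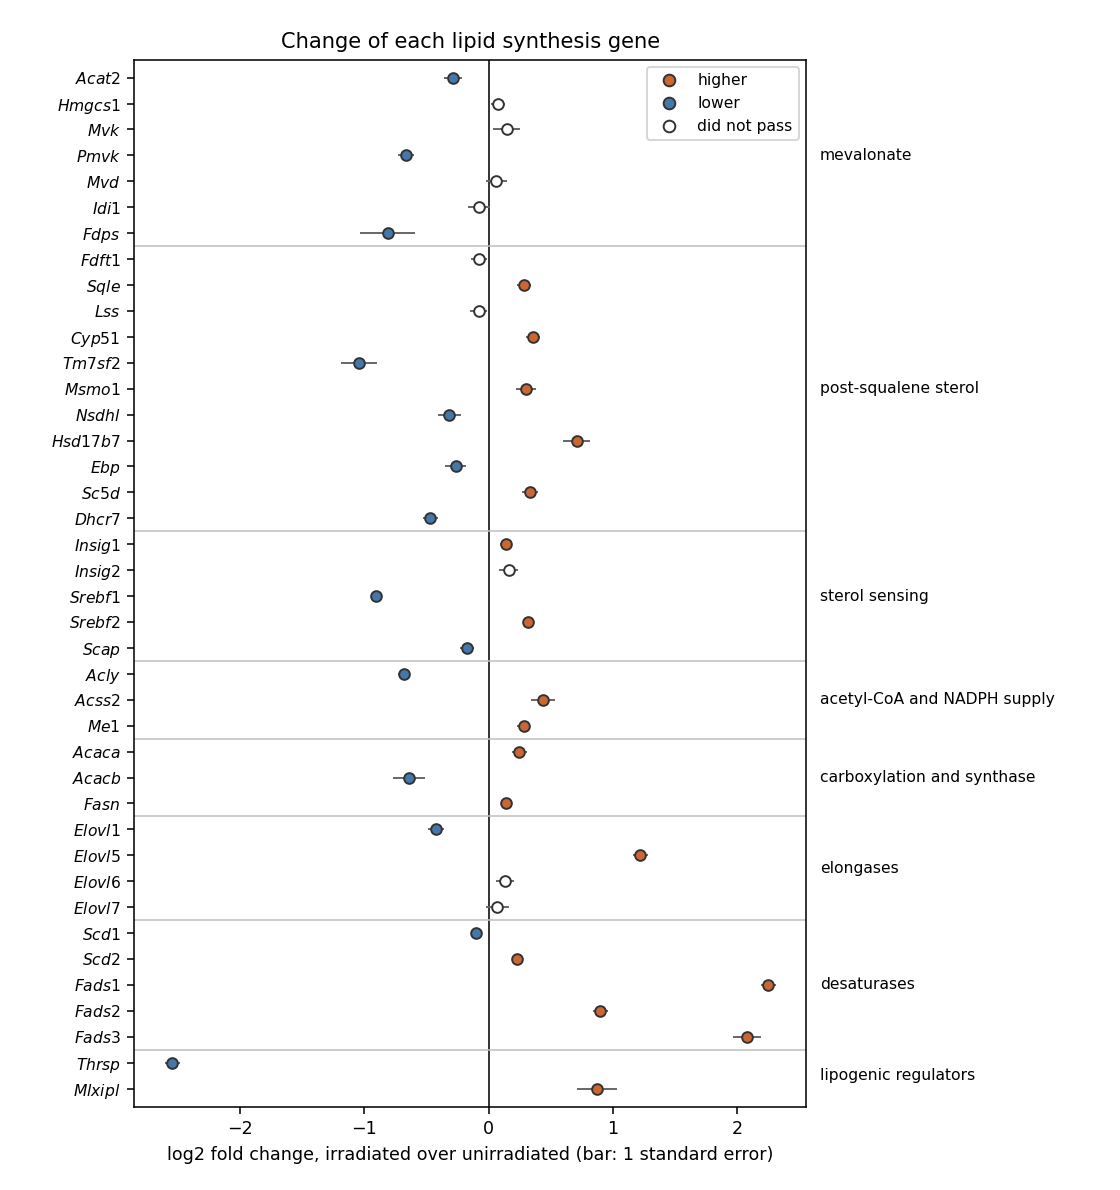
The log2 fold change of each of the 40 genes (x axis, irradiated over unirradiated, bar 1 standard error of the fit), ordered by role, with filled points for genes that passed at an adjusted p under 0.05 (edgeR). Most genes lie within 1 log2 unit of 0, Fads1 (2.25) and Fads3 (2.08) lie farthest to the right and Thrsp (-2.54) farthest to the left.

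Of the 18 genes of the sterol branch 5 were higher, 7 lower and 6 did not pass. The 66.7% called is near the 66.4% of all tested genes. The branch had a median log2 fold change of -0.08 and a median absolute change of 0.29. In the fatty acid branch 10 of 17 genes were higher (58.8%), 5 lower (29.4%) and 2 did not pass, around a median of 0.23 and a median absolute change of 0.44, beside 0.455 for all tested genes. The fatty acid median did not keep its sign: when a trend of fold change with gene length and GC content was corrected for, it was -0.06, with 6 genes higher and 6 lower, and the sterol branch then had a median of -0.16 with 5 higher and 8 lower. Across all members that setting gave 13 higher and 16 lower. It also moved the median of all 15961 tested genes to -0.0685, with 4467 higher and 5732 lower. The difference between the branches was described and not tested, since the genes were chosen with results of these libraries known.

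In the opening, mevalonate stretch of the sterol branch 3 of 7 genes were lower, 4 did not pass and none was higher, apart from Mvk and Mvd with the correction for length and GC and Hmgcs1 without irradiated A. The share called lower was 42.9%, beside 32.5% of all tested genes, and the share called in either direction 42.9%, beside 66.4%. Pmvk, phosphomevalonate kinase (chromosome 3, 89454541 to 89469013), was at 87.1 and 91.2 CPM in the unirradiated libraries and at 52.8 and 59.1 CPM in the irradiated ones. Both irradiated libraries lay well below both unirradiated ones, and the log2 fold change was -0.66 (standard error 0.0644, adjusted p = 4.76e-14). Acat2, the cytosolic thiolase that joins the first acetyl units, was at 48.9 and 46.3 against 39.0 and 39.3 CPM (log2 fold change -0.28, standard error 0.0755, adjusted p = 7.85e-04). Fdps, farnesyl diphosphate synthase, was the scarcest gene of the branch, at 5.85 and 5.99 against 3.97 and 2.95 CPM. Its groups did not overlap and the change passed (log2 fold change -0.81, standard error 0.222, adjusted p = 0.00111), but without irradiated B it was -0.56 with an adjusted p of 0.0883. In the reference annotation 26.7% of the exonic bases of Fdps are shared with Gm43738 on the same strand, a gene listed at 0 counts in all 4 libraries, so the level of Fdps is uncertain.

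The other 4 mevalonate genes did not pass. Hmgcs1, the synthase that makes HMG-CoA (chromosome 13, 119690379 to 119708260), was at 105 and 115 against 111 and 120 CPM, and its groups overlapped (log2 fold change 0.08, standard error 0.0567, adjusted p = 0.229). Mvd, the mevalonate diphosphate decarboxylase, at 31.7 and 33.9 against 31.9 and 35.8 CPM, and Idi1, the isopentenyl diphosphate isomerase, at 32.1 and 34.5 against 33.1 and 30.2 CPM, overlapped as well. Mvk, mevalonate kinase, was at 18.3 and 17.4 against 19.8 and 19.9 CPM, without overlap but short of the threshold (adjusted p = 0.228). Without irradiated A Hmgcs1 passed at a log2 fold change of 0.14, and with the correction for length and GC it was -0.10. With that correction Mvk and Mvd were called higher, at 0.25 (adjusted p = 0.0377) and 0.24 (adjusted p = 0.00906).

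From squalene onward the genes moved in both directions, with 5 of 11 higher (45.5%), 4 lower (36.4%) and 2 not passing. Of all tested genes 33.9% were higher and 32.5% lower. Sqle, squalene epoxidase, an oxygen-dependent control point of the pathway, rose from 97.0 and 101 CPM to 117 and 124 CPM. Cyp51, the lanosterol demethylase, rose from 107 and 102 to 136 and 132 CPM. Both genes were higher in both irradiated libraries than in either unirradiated one, with log2 fold changes of 0.29 (adjusted p = 7.62e-06) and 0.36 (adjusted p = 4.09e-08). Hsd17b7, which reduces the sterol keto group, had the largest rise of the branch, from 17.2 and 13.9 to 25.3 and 26.2 CPM (log2 fold change 0.71, standard error 0.108, adjusted p = 5.32e-08). Sc5d, a sterol desaturase, rose from 56.6 and 55.2 to 70.3 and 70.5 CPM, and Msmo1, the methylsterol monooxygenase that acts after Cyp51, from 37.6 and 37.7 to 42.7 and 49.3 CPM. The rise of Msmo1 was larger in irradiated B, without which its log2 fold change went from 0.30 to 0.19 and no longer passed. The calls of Sqle and Msmo1 were also lost with the correction for length and GC, at 0.09 and 0.05.

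Among the falls, Tm7sf2, a sterol reductase (chromosome 19, 6062821 to 6077197), was the only sterol gene beyond 2-fold. It was at 16.6 and 13.4 CPM in the unirradiated and 7.64 and 7.18 CPM in the irradiated libraries (log2 fold change -1.04, standard error 0.146, adjusted p = 6.01e-09). The irradiated libraries were close to each other and below both unirradiated ones. The neighbouring gene Vps51 shares 12.1% of the exonic bases of Tm7sf2 on the same strand and fell too, from a mean of 6.09 to 4.27 CPM. Dhcr7, the reductase of the last step of one route to cholesterol, fell from 101 and 103 to 72.5 and 75.1 CPM (log2 fold change -0.47, standard error 0.0588, adjusted p = 2.51e-10). Nsdhl, which removes methyl groups from sterols together with Msmo1, fell from 31.0 and 33.3 to 23.8 and 27.1 CPM (adjusted p = 0.00201). Ebp, a sterol isomerase, was at 35.3 and 36.3 against 30.1 and 29.5 CPM with an adjusted p of 0.00522, a call that was lost with DESeq2, without the filter, without irradiated B and with the correction for length and GC. The call of Nsdhl was lost without irradiated A, at a log2 fold change of -0.22.

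Fdft1, squalene synthase, and Lss, lanosterol synthase, did not pass. Fdft1 was at 64.2 and 64.9 against 61.6 and 60.9 CPM, and Lss at 54.6 and 56.3 against 53.5 and 51.5 CPM, both with a log2 fold change of -0.08. Fdft1 shares 18.3% of its exonic bases with the cathepsin gene Ctsb on the opposite strand, which rose from a mean of 565 to 980 CPM, and the libraries do not record strand. With the correction for length and GC both genes were lower, Fdft1 at -0.15 and Lss at -0.41.

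In the sensing group 2 of 5 genes were higher and 2 lower (40% each, beside 33.9% and 32.5% of all tested genes). The SREBP genes moved in opposite directions. Srebf1 (chromosome 11, 60199089 to 60222581) was at 1336 and 1405 CPM in the unirradiated and 718 and 748 CPM in the irradiated libraries, a log2 fold change of -0.90 (standard error 0.0379, adjusted p = 4.40e-31). Srebf2 (chromosome 15, 82147181 to 82205379) was at 206 and 224 against 269 and 266 CPM, a log2 fold change of 0.32 (adjusted p = 1.74e-08). Per kilobase, Srebf1 exceeded Srebf2 by 8.28 and 8.0 times in the unirradiated libraries and by 3.40 and 3.58 times in the irradiated ones. Neither the groups of Srebf1 nor those of Srebf2 overlapped, and both calls held under every alternative except the test against 1.5-fold, which Srebf2 did not pass. With the correction for length and GC the log2 fold change of Srebf2 shrank to 0.11 (adjusted p = 0.0229).

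Of the genes that hold SREBP back or carry it, 1 was higher, 1 lower and 1 did not pass. Insig1, the retention protein that SREBP itself induces, was at 145 and 147 against 161 and 161 CPM (log2 fold change 0.14, adjusted p = 0.0127), a call lost with upper-quartile scaling (0.09) and without unirradiated A (0.13). Insig2, its less regulated relative, was at 38.8 and 38.8 against 42.9 and 43.9 CPM and did not pass (adjusted p = 0.0558). Scap, the escort of SREBP to the Golgi, was at 131 and 144 against 121 and 122 CPM (log2 fold change -0.17, adjusted p = 0.00394), and without unirradiated B or without the filter it did not pass, at -0.10 and -0.11. With the correction for length and GC the fall of Scap was larger, at -0.42 (adjusted p = 6.88e-10). The RPKM ratio of Insig1 to Insig2 was 4.201 and 4.255 in the unirradiated and 4.202 and 4.119 in the irradiated libraries.

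**Figure D2:**
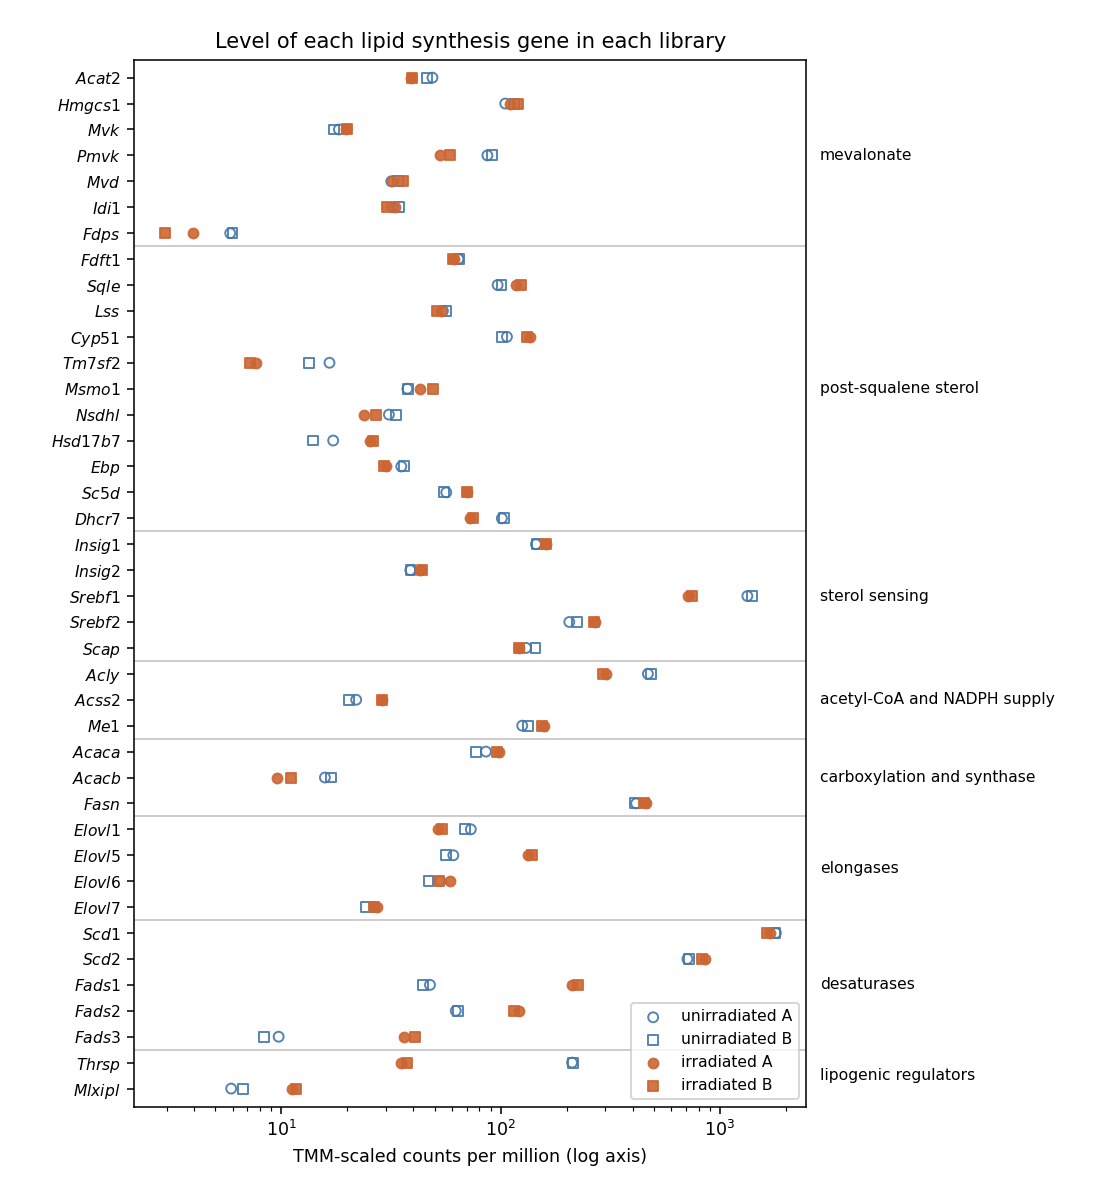
The level of each of the 40 genes in each of the 4 libraries (x axis, TMM-scaled CPM, log axis; open symbols unirradiated, filled symbols irradiated), grouped by role. The pairs of libraries of a group lie close together, with Srebf1 (1336 and 1405 against 718 and 748 CPM) and Thrsp (212 and 214 against 35.2 and 37.6 CPM) shifted left and Fads1 (47.7 and 44.1 against 212 and 226 CPM) shifted right.

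In the fatty acid branch the genes that supply carbon and reducing power divided. Acly, the ATP citrate lyase that makes cytosolic acetyl-CoA from citrate (chromosome 11, 100476353 to 100528000), was at 470 and 485 CPM in the unirradiated and 301 and 293 CPM in the irradiated libraries. The fall was large beside the spread within groups (log2 fold change -0.68, standard error 0.0423, adjusted p = 1.62e-22). Acss2, which makes the same product from acetate, rose from 21.95 and 20.39 to 28.7 and 28.8 CPM (log2 fold change 0.44, adjusted p = 7.30e-05), a rise that shrank to 0.11 and did not pass with the correction for length and GC. Me1, the cytosolic malic enzyme that yields NADPH, rose from 126 and 133 to 159 and 155 CPM (log2 fold change 0.28, adjusted p = 2.93e-06). Together the 3 genes summed to 618 and 638 CPM without radiation and to 489 and 477 CPM after it.

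The acetyl-CoA carboxylases went apart. Acaca, the cytosolic form that feeds synthesis, was at 85.8 and 77.0 against 98.4 and 96.0 CPM (log2 fold change 0.25, adjusted p = 2.43e-04). Acacb, the form at the mitochondrial surface whose product restrains fatty acid oxidation, fell from 15.8 and 16.8 to 9.56 and 11.1 CPM (log2 fold change -0.64, adjusted p = 2.18e-05). The RPKM ratio of Acaca to Acacb was 3.06 and 2.58 in the unirradiated and 5.81 and 4.90 in the irradiated libraries. Fasn, the fatty acid synthase, was at 416 and 409 against 463 and 449 CPM, a small difference that passed (log2 fold change 0.14, standard error 0.0413, adjusted p = 0.00174). With the correction for length and GC Acaca was at -0.08 and did not pass, and Fasn was at -0.14 and was called lower (adjusted p = 7.51e-04).

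Of the 4 elongases 1 was higher and 1 lower (25% each, beside 33.9% and 32.5% of all tested genes). Elovl5, which lengthens polyunsaturated fatty acids (chromosome 9, 77917364 to 77984519), was at 60.9 and 56.1 CPM in the unirradiated and 134 and 140 CPM in the irradiated libraries. It rose 2.33-fold, with no overlap of the groups (log2 fold change 1.22, standard error 0.0599, adjusted p = 1.54e-27), higher than for 91.5% of all tested genes. Elovl1, of very long saturated chains, fell from 73.2 and 68.7 to 51.8 and 54.0 CPM (log2 fold change -0.42, adjusted p = 1.00e-07). Elovl6, which takes palmitate to stearate, overlapped between groups, at 53.2 and 46.9 against 59.1 and 52.2 CPM (log2 fold change 0.14, adjusted p = 0.0991). Elovl7, another elongase of long chains, overlapped slightly, at 26.6 and 24.3 against 27.3 and 26.5 CPM. Elovl6 passed without the filter (0.19), without unirradiated A (0.24) or without irradiated B (0.24), and it turned to -0.13 with the correction for length and GC, as Elovl7 turned to -0.06.

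The front-end desaturases Fads1, Fads2 and Fads3 lie in a cluster on chromosome 19, between 10041548 and 10196870, and all 3 rose. Fads1, which makes arachidonic acid from its precursor (10182888 to 10196870), was at 47.7 and 44.1 CPM in the unirradiated and 212 and 226 CPM in the irradiated libraries. This was a 4.76-fold rise (log2 fold change 2.25, standard error 0.0593, adjusted p = 3.00e-42), at the 97.0th percentile of all tested genes. Fads3, a relative that acts on sphingoid bases (10041548 to 10059671), rose from 9.72 and 8.33 to 36.2 and 40.6 CPM, or 4.24-fold (log2 fold change 2.08, standard error 0.113, adjusted p = 2.40e-25). Fads2, which opens the polyunsaturated route (10064164 to 10101503), rose from 62.5 and 63.9 to 121 and 115 CPM, or 1.87-fold (log2 fold change 0.90, standard error 0.0600, adjusted p = 5.99e-21). Every irradiated library exceeded every unirradiated one for all 3 genes. Under the alternatives other than the test against 1.5-fold the log2 fold changes ranged from 2.21 to 2.32 for Fads1, from 2.00 to 2.21 for Fads3 and from 0.85 to 1.18 for Fads2, and all passed that test too.

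The stearoyl-CoA desaturases, which make oleate and palmitoleate, were the most abundant genes of the branch per kilobase, and their differences were small. Scd1 (chromosome 19, 44394451 to 44407709) was at 1803 and 1792 against 1703 and 1647 CPM (log2 fold change -0.10, standard error 0.0351, adjusted p = 0.00906), and it did not pass without unirradiated A, without unirradiated B or without the filter. Scd2 (chromosome 19, 44293676 to 44306864) was at 712 and 724 against 858 and 830 CPM (log2 fold change 0.23, adjusted p = 3.16e-07), and it was at 0.05 and did not pass with the correction for length and GC. The RPKM ratio of Scd1 to Scd2 was 2.85 and 2.79 in the unirradiated and 2.24 in both irradiated libraries. The sequences of these relatives are alike, and the sources used here do not say how the authors counted reads shared between them.

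The lipogenic regulators moved in opposite directions. Thrsp, a thyroid hormone responsive protein that promotes lipogenesis in liver, fat and mammary gland (chromosome 7, 97412938 to 97417730), was at 212 and 214 CPM in the unirradiated and 35.2 and 37.6 CPM in the irradiated libraries. It fell 5.83-fold (log2 fold change -2.54, standard error 0.0589, adjusted p = 2.37e-45), a change lower than that of all but 1.57% of tested genes. The libraries of each group differed by far less than the groups did. Mlxipl, encoding the carbohydrate response factor ChREBP, rose from 5.91 and 6.72 to 11.2 and 11.6 CPM (log2 fold change 0.87, standard error 0.163, adjusted p = 3.98e-06). It did not pass against a change of 1.5-fold (adjusted p = 0.0502).

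**Figure D3:**
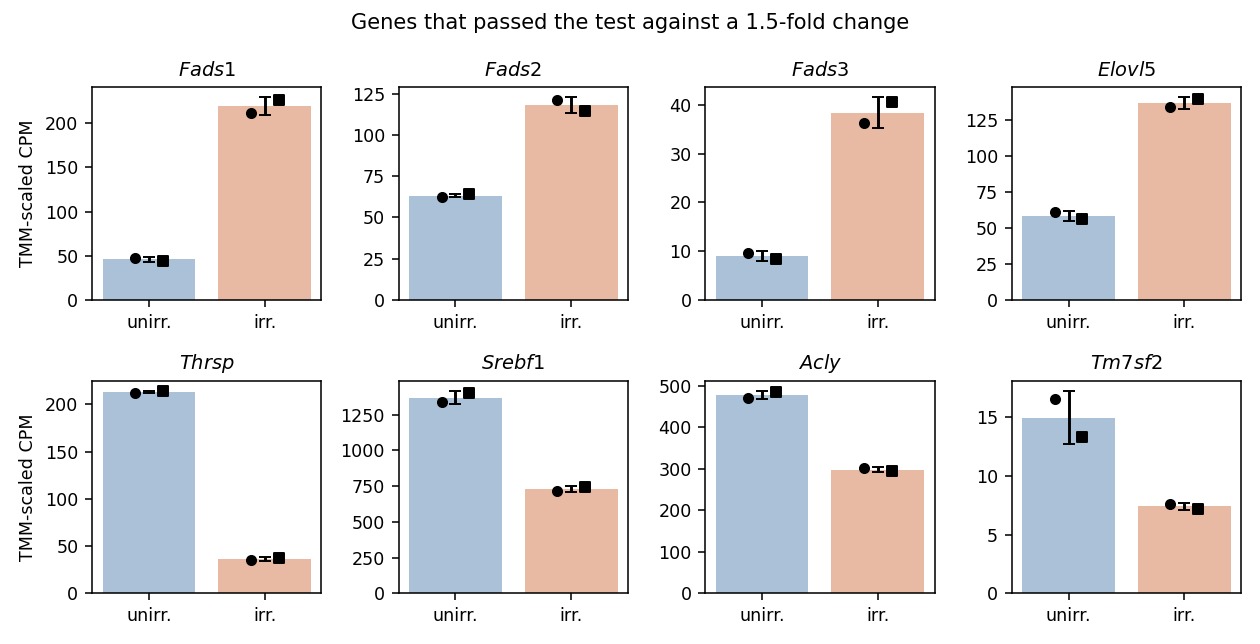
The 8 genes that passed the test against a 1.5-fold change, in TMM-scaled CPM (bars, group means of n = 2 libraries; error bars, SD; circles, library A; squares, library B; unirr., unirradiated; irr., irradiated). In each panel both irradiated libraries lie on 1 side of both unirradiated ones, as for Fads3 (9.72 and 8.33 against 36.2 and 40.6 CPM) and Acly (470 and 485 against 301 and 293 CPM). The genes were chosen by that test on these same libraries, so this separation was fixed in advance.

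Summed over genes, neither branch was displaced by as much as single members were. The sterol branch summed to 947 and 961 CPM in the unirradiated and 932 and 961 CPM in the irradiated libraries. The fatty acid branch summed to 4201 and 4189 against 4308 and 4212 CPM. The ratio of the fatty acid to the sterol sum was 4.43 and 4.36 against 4.62 and 4.38, with overlapping groups. Within the fatty acid sum the make-up shifted: the share of Scd1 was 42.9% and 42.8% in the unirradiated and 39.5% and 39.1% in the irradiated libraries. The polyunsaturated route (Fads1, Fads2 and Elovl5) summed to 72.5 and 71.1 RPKM against 180 and 181 RPKM. Its genes were grouped with their values known, so the rise of this sum was fixed in advance. The route from acetyl-CoA to oleate (Acaca, Fasn, Elovl6, Scd1 and Scd2) summed to 555 and 552 against 567 and 547 RPKM, with overlapping groups. Scd1 and Scd2 make up most of that sum, and Acaca, Fasn and Elovl6 alone summed to 51.3 and 49.2 against 57.2 and 54.8 RPKM. With scaling by library total alone, which places the irradiated libraries 0.14 log2 units higher than TMM does, the sterol sum was 0.13 log2 units higher after irradiation in place of -0.01, and the fatty acid sum 0.16 in place of 0.02.

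**Figure D4:**
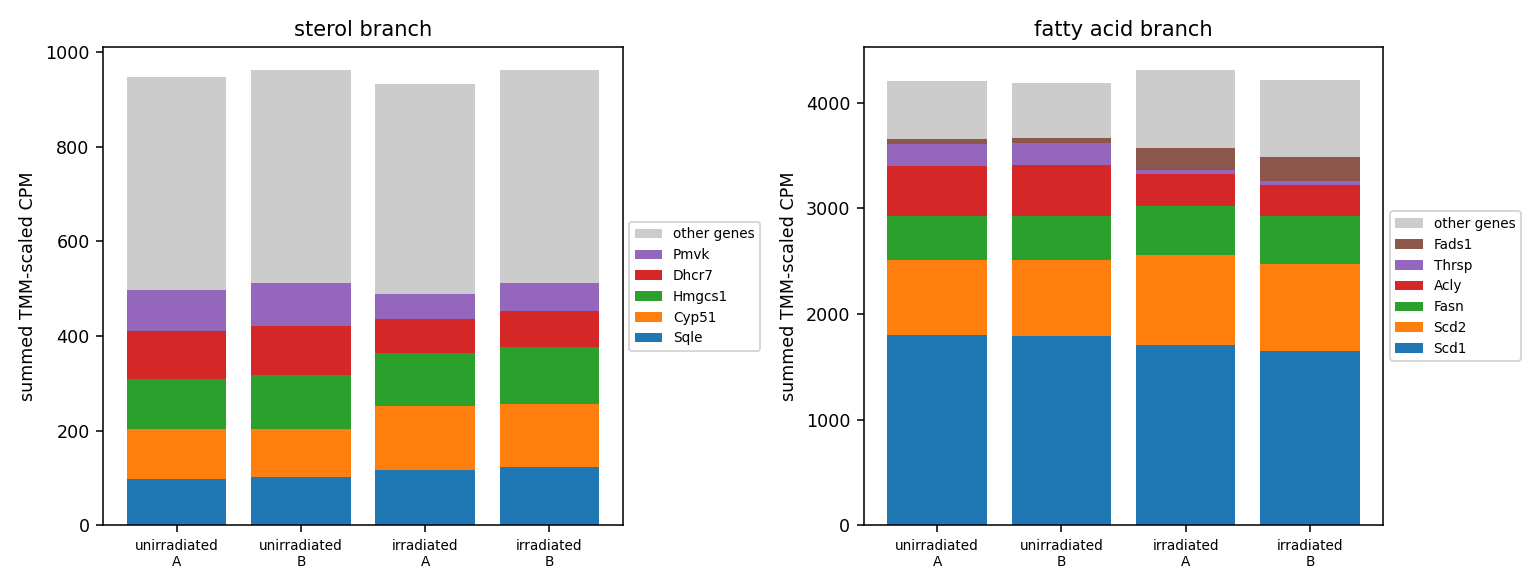
Summed TMM-scaled CPM (y axis, from 0, a separate scale in each panel) of the 18 sterol and the 17 fatty acid genes in each library, divided into the most abundant or most changed genes and the rest. The sterol bars stand between 932 and 961 CPM and the fatty acid bars between 4189 and 4308 CPM, and within the latter Thrsp and Acly are narrower and Fads1 is wider in the irradiated libraries.

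The start regions of the members were compared as sequence, since SREBP is known to act at short sterol response elements, often near CCAAT boxes. RefSeq promoter windows of the GRCm38.p6 build were found for 34 of 40 members. No window was available for Sqle, Fdft1, Fdps, Scd1, Scd2 and Fads1, the last being the member that rose the most. The 250 bases before each start were searched on both strands for a form of the sterol response element (TCACNCCAC), the box known as CCAAT after its letters, an E-box (CACGTG) and a GC box (GGGCGG). The CCAAT box was held by 14 of 15 sterol branch genes (77.8% of 18 windows), by 4 of 5 sensing genes (50% of 10 windows) and by 9 of 14 fatty acid branch genes (52.9% of 17 windows), beside 33.9% of all 32851 windows. The sterol response element form was found in 1 sterol gene (Hmgcs1) and 1 fatty acid gene (Mlxipl), or 4.44% of the 45 windows of the members, beside 1.05% of all windows. The E-box was found in Dhcr7, Hsd17b7, Sc5d, Insig1, Scap, Elovl5 and Mlxipl, or 15.6% of the members' windows, beside 6.02%. The GC box was found in 14 of 15 sterol genes (83.3% of windows), 5 of 5 sensing genes (70%) and 8 of 14 fatty acid genes (52.9%), beside 32.7% of all windows. All windows include those of genes that were not tested here, whereas every member passed the filter on low counts, so the compared sets are unlike. A match is a description of letters and not of binding. The windows that follow are those of an elongase and 2 desaturases that rose (Elovl5, Fads2 and Fads3), of Acly, which fell, and of Hmgcs1, which did not pass, read 5′ to 3′ with the last base next to the start. Capitals mark the CCAAT box, which reads ATTGG on the other strand, the E-box and the sterol response element form.
Elovl5, chr9:77917115-77917364, plus strand: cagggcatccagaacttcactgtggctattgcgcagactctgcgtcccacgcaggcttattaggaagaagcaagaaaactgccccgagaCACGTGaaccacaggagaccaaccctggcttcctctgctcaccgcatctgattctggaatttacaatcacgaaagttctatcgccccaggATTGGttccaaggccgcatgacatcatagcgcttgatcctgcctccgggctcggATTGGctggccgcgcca
Fads2, chr19:10101504-10101753, minus strand: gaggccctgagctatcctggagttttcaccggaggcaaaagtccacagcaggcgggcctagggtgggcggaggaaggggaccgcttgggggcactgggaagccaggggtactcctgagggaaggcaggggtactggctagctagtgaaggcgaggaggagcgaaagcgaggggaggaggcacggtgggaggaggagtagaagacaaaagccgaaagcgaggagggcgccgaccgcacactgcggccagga
Fads3, chr19:10041298-10041547, plus strand: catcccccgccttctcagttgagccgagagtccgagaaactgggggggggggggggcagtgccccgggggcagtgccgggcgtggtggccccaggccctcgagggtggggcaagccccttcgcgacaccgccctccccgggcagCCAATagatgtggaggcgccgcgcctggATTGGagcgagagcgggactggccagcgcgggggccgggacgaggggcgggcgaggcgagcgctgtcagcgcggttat
Acly, chr11:100528001-100528250, minus strand: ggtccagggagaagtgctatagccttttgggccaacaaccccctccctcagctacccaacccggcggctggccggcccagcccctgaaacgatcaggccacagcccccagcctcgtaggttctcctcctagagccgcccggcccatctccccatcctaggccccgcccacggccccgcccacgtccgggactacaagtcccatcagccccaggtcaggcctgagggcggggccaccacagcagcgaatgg
Hmgcs1, chr13:119690101-119690350, plus strand: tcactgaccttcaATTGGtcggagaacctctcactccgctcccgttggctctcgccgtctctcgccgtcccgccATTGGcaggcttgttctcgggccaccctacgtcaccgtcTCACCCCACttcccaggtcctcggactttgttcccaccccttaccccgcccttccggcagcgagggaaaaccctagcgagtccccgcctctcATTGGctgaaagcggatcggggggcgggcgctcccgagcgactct
Elovl5 held CCAAT boxes that begin 71 and 17 bases before the start and an E-box 161 bases before it. Fads3 held CCAAT boxes at 106 and 78 bases. Fads2 rose without any of the capitalised motifs in its window, and Acly fell with none in its own. Thrsp, Srebf1 and Tm7sf2, whose windows are not printed, fell as well and held CCAAT boxes, so the printed windows do not stand for all falls. Hmgcs1 held CCAAT boxes at 237, 176 and 45 bases and the sterol response element form at 137 bases.

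Other genes of lipid handling were read from 8 further lists, of which 47 of 107 tested members were higher and 32 lower. These are shares of 43.9% and 29.9%, beside 33.9% and 32.5% of all tested genes. By list, the share called in either direction ran from 58.3% to 85.7%, beside 66.4% of all tested genes, and the share called higher from 12.5% to 68.8%. Sterol export, esterification and oxysterol genes had 7 of 13 higher and 3 lower. Lipa, the lysosomal acid lipase that frees cholesterol from its esters, rose from 57.5 ± 2.15 to 256 ± 9.26 CPM (SD, n = 2; log2 fold change 2.15), and Abca5, an ABC family transporter, from 2.77 ± 0.137 to 10.2 ± 1.46 CPM (1.84). Soat2, a cholesterol esterifying enzyme, was called lower at -1.85 but rested on unirradiated A, with 54, 10, 12 and 13 counts in the 4 libraries, and without that library the log2 fold change was -0.42 (adjusted p = 0.651). Sterol uptake and transport genes were evenly divided, with 6 of 14 higher and 6 lower. The lipoprotein receptors Lrp1 and Lrp8 moved apart, Lrp1 from 41.1 ± 0.637 to 146 ± 6.84 CPM and Lrp8 from 51.2 ± 2.60 to 17.1 ± 1.27 CPM, and the sterol transfer protein gene Gramd1c fell (-0.95).

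Of the isoprenoid side branches, which draw on the product of Fdps, 4 of 13 genes were higher and 6 lower. Dhdds, of dolichol synthesis, and Coq2, of ubiquinone synthesis, fell by 0.95 and 0.69 on the log2 scale, and Fntb, a subunit of farnesyltransferase, rose by 0.58. SREBP processing and lipogenic control had 11 of 16 genes higher and 1 lower. The highest changes were those of Pparg (1.09), the adipogenic nuclear receptor at under 2 CPM in either group, Erlin1 (0.71), an endoplasmic reticulum protein that binds the SREBP complex, and Rnf145 (-0.67), a sterol-regulated ubiquitin ligase. Without unirradiated A or without irradiated B Pparg did not pass, at 0.75 and 0.71.

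Other elongation and activation enzymes had 4 of 12 tested genes higher and 3 lower, led by the acyl-CoA synthetase Acsl3 (0.89) and the dehydratase genes Hacd3 (0.87) and Hacd4 (0.70). Triglyceride synthesis and droplet genes had 7 of 14 tested higher and 3 lower, with Mogat1 (1.44) and Agpat3 (0.88), acyltransferases of glycerolipid assembly, upward and Dgat1 (-0.66), which makes the final triglyceride, downward. Of 16 tested genes of lipolysis and fatty acid oxidation 2 were higher (12.5%) and 9 lower (56.2%; median log2 fold change -0.31). The lipases Mgll, Lipe and Pnpla2, which together break down stored triglyceride, all fell, Mgll from 72.7 ± 8.84 to 34.4 ± 0.695 CPM (-1.09), Lipe from 21.3 ± 1.52 to 14.0 ± 0.191 CPM (-0.61) and Pnpla2 from 162 ± 2.18 to 107 ± 1.92 CPM (-0.60). Milk fat secretion genes had 6 of 9 higher and 1 lower (median log2 fold change 1.52). Btn1a1, the butyrophilin of the milk fat globule, rose from 3.01 ± 1.40 to 99.5 ± 1.76 CPM (4.98, or 5.62 without unirradiated A), Mfge8, another globule protein, from 303 ± 5.10 to 1174 ± 30.9 CPM (1.96), and Cidea, a droplet protein, from 0.801 ± 0.217 to 2.83 ± 0.243 CPM (1.76). Per library the milk fat list summed to 680 and 676 CPM in the unirradiated and 1629 and 1663 CPM in the irradiated group.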

How the data were processed

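RNA sequencing counts were used for 4 libraries, 2 unirradiated and 2 irradiated. Per the labels' protocols, digested tumours were treated with a PDGFRa antibody, and poly(A) RNA was sequenced without a record of strand. The labels do not state which cell fraction was sequenced. The authors' tools were STAR 2.5, HTSeq 0.6.1 and DESeq2 on mm10, per the submitters' processing notes, and how reads were counted is not given in the sources. Per the file headers, the authors deposited raw counts and a length in bases for each gene. Of 54532 gene identifiers 54495 occur in GENCODE M21, which gave exon overlaps and GC content, and 34 of 40 members have identical coordinates there.

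From the counts, TMM-scaled CPM and RPKM were computed, and irradiated was compared with unirradiated by the quasi-likelihood F-test of edgeR 4.0.16 in R 4.3.3, after filterByExpr and TMM. P-values were adjusted over 15961 genes (Benjamini-Hochberg) and called under 0.05. Standard errors were taken from the log2 fold change and F. With 2 residual degrees of freedom the spread was pooled across genes, at a common biological coefficient of variation of 3.86%. The code was checked on simulated counts. Members, lists and tests were chosen with earlier results of these data known. All 40 members are named, and of each other lipid list up to 3 called genes, the largest changes among those averaging 1 CPM or more. Other settings were upper-quartile or RLE scaling, library total scaling of sums, DESeq2 1.42.0, no filter or a stricter one (1 CPM in 2 libraries), a block for the replicate letter, each library left out in turn, a looser threshold (0.1), a test against 1.5-fold, and a correction for a smooth trend with gene length and GC content (mgcv 1.9.3). Legacy dispersion of edgeR was added after the data were seen, as was the trend correction for the other lipid lists. Promoter windows came from RefSeq (GRCm38.p6), and for 40 of 45 member windows the bases after the start occur in a GENCODE transcript.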

Additional observations from a re-analysis of the deposited data

How the results depend on the processing

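The counts of 17 higher and 14 lower members moved to no more than 19 and no fewer than 11 under every alternative but one: the test against a 1.5-fold change called 4 higher and 4 lower. The sterol median of -0.08 was -0.0143 without the filter and -0.16 with the correction for length and GC. The fatty acid median of 0.23 was 0.19 with upper-quartile scaling, 0.29 without the filter and -0.062 with that correction, and between 0.18 and 0.27 with a library left out. The correction moved the median of all tested genes as well, to -0.0685. The summed sterol level (-0.01 on the log2 scale) was 0.13 with scaling by library total alone, -0.0948 per kilobase and -0.0654 without its most abundant gene, and between -0.0347 (without irradiated B) and 0.0104 (without irradiated A) with a library left out. The summed fatty acid level (0.02) was 0.16 with scaling by library total alone and 0.11 without Scd1. The length and GC correction reversed Hmgcs1 (-0.10), Acaca (-0.0771), Fasn (-0.14), Elovl6 (-0.13) and Elovl7 (-0.062), and leaving out irradiated B reversed Mvd (-0.0238) and Idi1 (0.00808). The cause of these shifts was not tested. With the replicate block 18 members were higher and 14 lower, as Elovl6 passed (0.15, adjusted p = 0.0441). The A minus B differences of the groups correlated at 0.00177 over 11235 genes. This cannot decide whether the letters match libraries across groups, since differences between technical repeats need not correlate. Depth limits the scarce members most, Fdps with 66 to 98 counts and Mlxipl with 83 to 288 counts per library.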
